A study of Homo sapiens with 6 samples.

Results

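The 38 genes described here encode the constitutive proteasome and its closest helpers, chosen by name: 7 alpha subunits (PSMA1 to PSMA7) and 7 beta subunits (PSMB1 to PSMB7) of the 20S core, 6 ATPases (PSMC1 to PSMC6) and 13 non-ATPase subunits of the 19S cap, the activators PSME3 and PSME4, and the assembly chaperones PSMG1, PSMG2 and PSMG3. They are 38 of 20136 coding genes in the annotation. They are grouped by symbol, so PSMD5 and PSMD9, both assembly chaperones, count among the non-ATPase subunits. Binding of N-Myc and of JMJD6 was mapped by chromatin immunoprecipitation and sequencing (ChIP-seq) in CHP-134, a human neuroblastoma cell line that the study describes as MYCN-amplified with a gain of chromosome 17q21-ter. There were 3 N-Myc samples, fixed with formaldehyde alone, and 3 JMJD6 samples, fixed with disuccinimidyl glutarate and then formaldehyde, so the protein and its fixation cannot be told apart. The deposited lists pool the 3 replicates of each protein: they name the peaks found in all 3, and the promoters (1 kb on each side of a start site), enhancers and super-enhancers that hold them, with no peak height, count or value per sample. A gene with no row is called not listed, which does not mean that it was unbound. The depth behind a row is unknown, no spread between replicates could be computed, and intervals given below are exact (Clopper-Pearson) 95% intervals that cover counting error over genes or peaks only.

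The proteasome is the protease that degrades proteins tagged with ubiquitin. The alpha subunits form the outer rings of the barrel-shaped core and gate its entrance, while the beta subunits form the inner rings, where PSMB5, PSMB6 and PSMB7 carry the proteolytic sites. The ATPases of the cap unfold substrates and thread them into the core, the non-ATPase subunits receive and deubiquitinate them, and the chaperones help to assemble the core rings. N-Myc, like other MYC proteins, binds DNA with MAX at E-boxes, of which CACGTG is the canonical form. JMJD6 is a jumonji domain protein that acts on arginine and lysine side chains.

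N-Myc promoter peaks of 8 proteasome genes contained CACGTG in the reference sequence, and its surroundings are shown because they are the letters on which the E-box counts below rest. The E-box is in capitals, the coordinates are 1-based on GRCh37, and each sequence reads 5′ to 3′ on the strand of the gene. Contexts close to an exon or past a listed start site are limited to 30 bases.
PSMA3 (chr14:58710925-58711024, plus strand): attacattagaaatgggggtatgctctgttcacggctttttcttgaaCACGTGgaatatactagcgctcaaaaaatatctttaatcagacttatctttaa
PSMB2 (chr1:36107363-36107392, minus strand): ttttgacacccaCACGTGctcggcacctta
PSMB3 (chr17:36908709-36908808, plus strand): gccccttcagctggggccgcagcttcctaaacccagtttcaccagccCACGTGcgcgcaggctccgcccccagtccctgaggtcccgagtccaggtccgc
PSMC3 (chr11:47448432-47448531, minus strand): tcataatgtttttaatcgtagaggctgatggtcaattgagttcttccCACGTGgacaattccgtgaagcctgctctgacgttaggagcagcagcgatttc
PSMC4 (chr19:40476606-40476705, plus strand): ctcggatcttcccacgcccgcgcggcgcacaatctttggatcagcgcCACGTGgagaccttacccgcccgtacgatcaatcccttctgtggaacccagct
PSMC6 (chr14:53173448-53173547, plus strand): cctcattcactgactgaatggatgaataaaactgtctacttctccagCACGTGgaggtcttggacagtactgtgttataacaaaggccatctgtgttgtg
PSMD9 (chr12:122326553-122326582, plus strand): tcaccacaggcgCACGTGttccggcagggc
PSME3 (chr17:40985360-40985389, plus strand): ggctgcgcagcgCACGTGcacagcctcgca

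The promoter of PSMD3, which encodes a scaffold subunit of the cap, was the one proteasome promoter in the JMJD6 list, and 300 bases of the interval shared by both proteins are shown for that reason. Capitals mark TGACGTCA, the palindrome known as the cAMP response element. It was chosen after the sequence was read.
PSMD3 (chr17:38136499-38136798, plus strand): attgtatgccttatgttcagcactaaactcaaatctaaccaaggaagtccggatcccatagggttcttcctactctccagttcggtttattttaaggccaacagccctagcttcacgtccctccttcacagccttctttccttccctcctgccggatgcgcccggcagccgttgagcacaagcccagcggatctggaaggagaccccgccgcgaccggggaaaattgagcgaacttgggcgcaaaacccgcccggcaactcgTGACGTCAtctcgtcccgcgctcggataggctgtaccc

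At the promoters, N-Myc was listed for 18 of the 38 genes, or 47.4% (95% interval 31 to 64.2%), where 17.5% of all coding genes were listed. Proteasome promoters are mostly CpG-rich, in 34 of 38 genes (89.5%) against 64.8% of coding genes, by a GC content of at least 55% and an observed to expected CpG ratio of at least 0.6 in the 500 bp around the start site. Among autosomal coding genes with such a start site, 24.3% were listed. The share among the proteasome genes was thus above both values. The genes were chosen by name with earlier results of these data known, so the interval is no test against either value. With rows counted only where a peak of at least the median width of all N-Myc peaks (418 bp) lay in them, 11 of 38 genes remained, or 28.9% (interval 15.4 to 45.9%), against 10.5% of coding genes and 14.1% of those with a CpG-rich start site. JMJD6 was listed at 1 of the 38 promoters, or 2.63% (interval 0.0666 to 13.8%), against 0.626% of coding genes, and the list of promoters holding both proteins named the same 1 gene, PSMD3, against 0.298% of coding genes. With 1 gene of 38, no conclusion is drawn on how the JMJD6 share compares with that of coding genes.

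**Figure D1:**
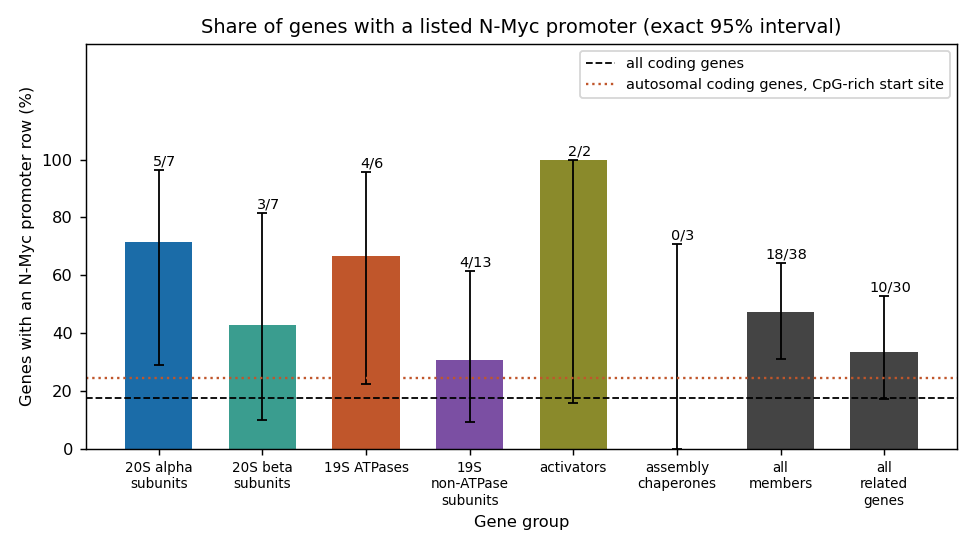
Share of genes with an N-Myc promoter row (%) in each proteasome group, in all 38 proteasome genes (all members) and in 30 related genes. Bars are shares with exact 95% intervals and the counts above them, the dashed line is all coding genes (17.5%) and the dotted line autosomal coding genes with a CpG-rich start site (24.3%). The intervals of the small groups are wide and overlap each other.

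The listed genes were spread over the core and the cap. Of the alpha subunits 5 of 7 were listed, PSMA1, PSMA2, PSMA3, PSMA5 and PSMA6, and PSMA4 and PSMA7 were not. Of the beta subunits 3 of 7 were listed, PSMB2, PSMB3 and PSMB6, the last of which carries the caspase-like site. The other two catalytic subunits, PSMB5 and PSMB7, with the chymotrypsin-like and trypsin-like sites, had no promoter row, nor did PSMB1 and PSMB4. Of the ATPases 4 of 6 were listed, PSMC3, PSMC4, PSMC5 and PSMC6, and PSMC1 and PSMC2 were not. Among the non-ATPase subunits 4 of 13 were listed: PSMD3, the ubiquitin receptor PSMD4, PSMD6, and PSMD9, a chaperone of ATPase assembly. Not listed were PSMD1, PSMD2, PSMD5, PSMD7, PSMD8, PSMD11, PSMD12, PSMD13 and the deubiquitinase PSMD14. Both activators were listed. Of the 3 assembly chaperones PSMG1, PSMG2 and PSMG3, 0 were, a count whose interval reaches 70.8%. Because groups follow the symbols, this count leaves out the chaperones PSMD9, which was listed, and PSMD5, which was not. Of the assembly factors among the related genes, PSMG4 was listed and POMP was not. The groups' intervals overlapped throughout, from 29 to 96.3% for the alpha subunits and from 9.09 to 61.4% for the non-ATPase subunits, so no order among them is drawn.

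**Figure D2:**
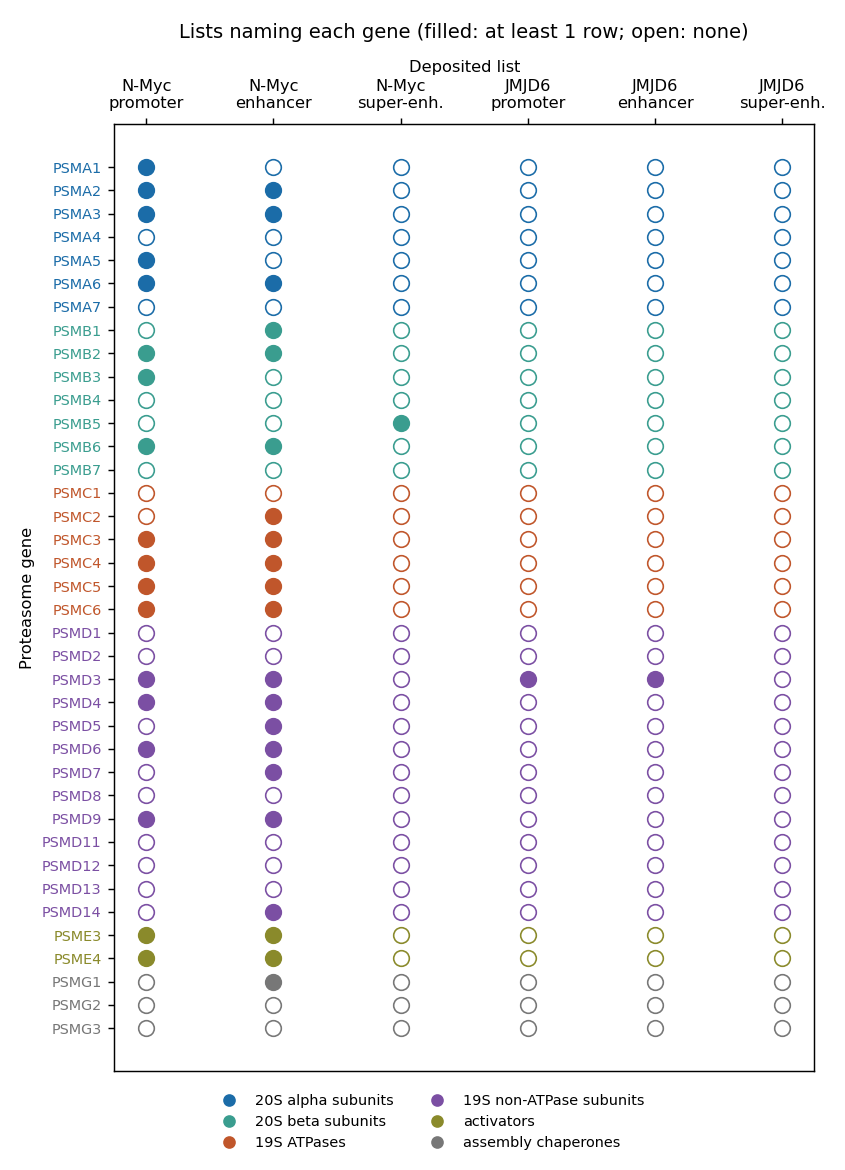
Each row is 1 of the 38 proteasome genes, coloured by group, and each column a deposited list. Filled points are genes with at least 1 row: 18 in the N-Myc promoter column, 21 in the N-Myc enhancer column, and PSMB5 alone in the N-Myc super-enhancer column. In the JMJD6 columns PSMD3 is the one gene with filled points.

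Each of the 18 promoters held 1 common N-Myc peak, and most lay just upstream of or over the start site. Of the 18 peaks, 14 covered a listed start site (77.8%, against 56.7% of 3550 common N-Myc peaks over any promoter row), and the centre of 16 lay upstream of the nearest one. The exceptions in position were PSMB2, centred 141 bp downstream, and PSME3, centred 93 bp downstream. Both depend on the start site used, since each gene had another listed one (36107152 and 40985413) with the peak centre upstream of it. The PSMB2 site used here, 36107445, lay 318 bp from the nearest annotated start. The median distance of the centre from the start site was 126.5 bp, against 185 bp for all promoter peaks, whose middle 50% ran from 71 to 465 bp. The median width was 472 bp against 452 bp. Width is a position measure and not a height, and no test was made of these differences.

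Among the alpha subunits, the PSMA1 peak (chr11:14541754-14542350, 597 bp) was centred 61 bp upstream of the listed start site and that of PSMA2 (chr7:42971604-42972202, 599 bp) 98 bp upstream. The PSMA5 peak (chr1:109968994-109969474, 481 bp) was centred 126 bp upstream, and that of PSMA6 (chr14:35761188-35761838, 651 bp) 9 bp upstream, the most central of the 18. The PSMA3 peak (chr14:58710841-58711250, 410 bp) ended 272 bp before the start site and lay in an intron of the neighbouring gene ARMH4, in sequence of 39% GC. It had the lowest GC content of the 18. The beta subunits had broad peaks at PSMB3 (chr17:36908427-36909249, 823 bp, centred 127 bp upstream) and PSMB2 (chr1:36106930-36107679, 750 bp), and a narrower one at PSMB6 (chr17:4699180-4699576, 397 bp, centred 60 bp upstream).

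Of the 4 ATPase peaks, those of PSMC4 (chr19:40476387-40477122, 736 bp, centred 157 bp upstream) and PSMC5 (chr17:61904294-61904871, 578 bp, centred 187 bp upstream) covered the start site. The peaks of PSMC3 (chr11:47448121-47448583, 463 bp) and PSMC6 (chr14:53173356-53173737, 382 bp) ended 97 and 158 bp before it. These 2 peaks therefore lay wholly upstream, like those of PSMA3 and PSME4. Among the non-ATPase subunits, PSMD3 had the widest peak of the 18 (chr17:38136206-38137093, 888 bp, with 240 of the 3550 promoter peaks wider). PSMD4 (chr1:151226984-151227297, 314 bp, centred 35 bp upstream), PSMD6 (chr3:64009231-64009452, 222 bp, 59 bp upstream) and PSMD9 (chr12:122326390-122326729, 340 bp, 77 bp upstream) had narrow peaks over a listed start site. At PSMD6 the covered site lay 112 bp from the nearest annotated start, and the peak covered no annotated start of the gene. PSME3, the nuclear activator also known as REG gamma, had a peak of 454 bp (chr17:40985025-40985478). The peak of PSME4, the activator also known as PA200, was 189 bp wide (chr2:54198310-54198498), and 0 of the 3550 promoter peaks were narrower.

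**Figure D3:**
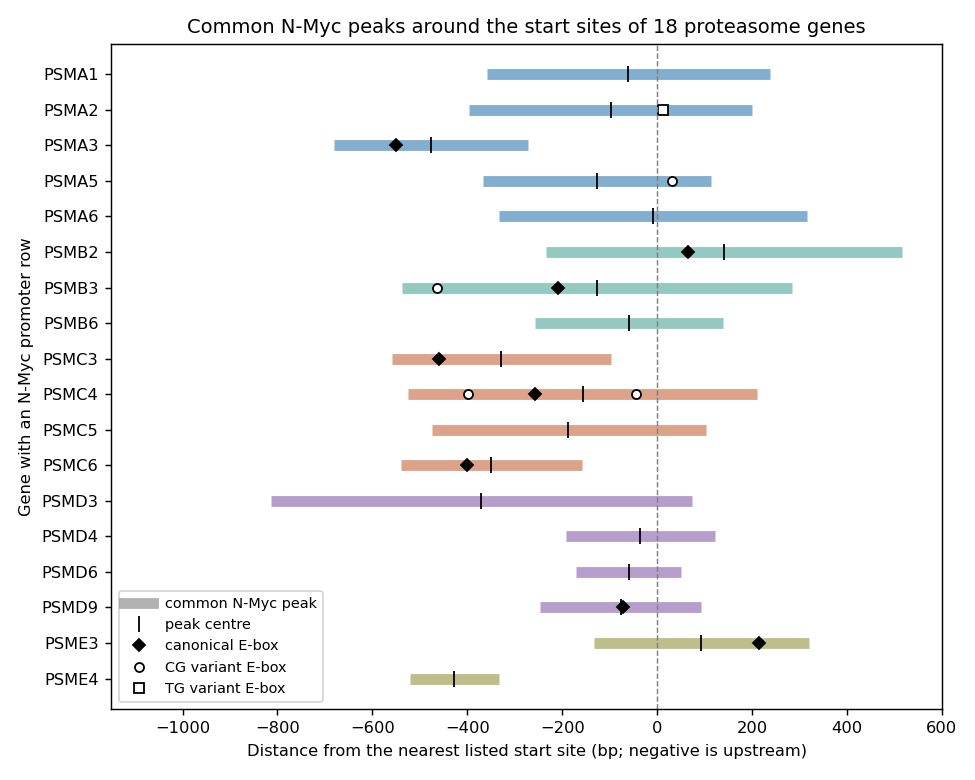
Common N-Myc peaks (bars, coloured by proteasome group) in bp from the nearest listed start site, read in the direction of each gene, with the peak centre as a tick. Diamonds are CACGTG, circles CACGCG and squares CATGTG. Bars cover the start site in 14 of 18 genes, and the bars of PSMA3, PSMC3, PSMC6 and PSME4 end upstream of it.

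At 4 of the 18 promoters the peak also overlapped the promoter row of a gene on the opposite strand, so that the peak cannot be assigned to one of the pair. These were PSMA2 with MRPL32, which encodes a mitochondrial ribosomal protein, PSMC5 with the rRNA-processing gene FTSJ3, PSMD9 with HPD, an enzyme of tyrosine breakdown, and PSME4 with ACYP2, an acylphosphatase. The share was 22.2%, and 22% of all N-Myc promoter peaks lay over promoters on both strands.

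The canonical E-box CACGTG occurred in 8 of the 18 peaks (44.4%), where 36.9% of all N-Myc promoter peaks held it. The 8 genes were PSMA3, PSMB2, PSMB3, PSMC3, PSMC4, PSMC6, PSMD9 and PSME3, each with 1 copy. In PSMD9 the E-box lay 8 bp from the peak centre, and in PSMC6 49 bp from it. Distances were 71 bp in PSMA3, 73 bp in PSMB2, 80 bp in PSMB3 and 99 bp in PSMC4. In PSME3 and PSMC3 the E-box was farther out, at 123 and 129 bp. CACGTG reads the same on both strands, and its variants were counted on both. The variant CACGCG occurred in PSMA5, PSMB3 and PSMC4 (16.7% of the 18 peaks, against 29.2% of all), and CATGTG in PSMA2 (5.56% against 22.5%). With any of the 3 strings counted, 10 of 18 peaks held 1, or 55.6% against 67.3%, and 8 peaks held none: PSMA1, PSMA6, PSMB6, PSMC5, PSMD3, PSMD4, PSMD6 and PSME4. The share with CACGTG was thus near that of N-Myc promoter peaks in general and the shares with the variants were lower, on counts of 3 and 1. A match is a description of the sequence, not a mapped site.

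Other promoter strings were counted in the same peaks on both strands. CCAAT, the box read by NF-Y, occurred in 11 of 18 peaks (61.1% against 48.5% of all promoter peaks). CCGGAAG, read by ETS factors, occurred in 3 (16.7% against 21.2%). TGANNNNGC, the core of the antioxidant response element, occurred in 10 (55.6% against 58.3%). The PSMA1 peak held none of these strings and no E-box. The PSMD3 peak, which had no E-box string, held 2 copies each of CCAAT and TGANNNNGC.

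Around the annotated start sites, in windows of 500 bp that do not depend on the peaks, the antioxidant response core was the most frequent of the strings counted. NFE2L1 and NFE2L2 are the transcription factors known to bind it, and NFE2L1 is known to raise proteasome genes when proteasome activity falls. TGANNNNGC matched in 35 of 38 proteasome windows (92.1%) against 59.9% of all coding windows. It matched in 17 of the 18 N-Myc-listed genes and in 18 of the 20 others, or 94.4% and 90%, and PSMC1, PSMC2 and PSMD4 were the 3 without it. Narrower strings were added after these data had been seen. TGACNNNGC, contained in the first, matched in 21 of 38 windows (55.3%) against 20.3%, in 13 of the listed and 8 of the other genes. The exact string TGACTCAGC matched in 4 proteasome windows, those of PSMD1, PSMD2, PSMD7 and PSMD12, none of which had an N-Myc promoter row, and in 0.536% of coding windows. PSMD1 and PSMD2 encode the large scaffolds at the base of the cap, and PSMD7 and PSMD12 encode subunits of its lid. Their contexts are shown for comparison with the E-box genes, with the string in capitals as it reads on the gene's strand (GCTGAGTCA).
PSMD1 (chr2:231921768-231921867, plus strand): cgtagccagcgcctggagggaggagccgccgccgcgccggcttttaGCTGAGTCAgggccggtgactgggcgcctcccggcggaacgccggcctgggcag
PSMD2 (chr3:184017219-184017248, plus strand): gaggctgcgggGCTGAGTCAcggcggctcc
PSMD7 (chr16:74330917-74330946, plus strand): gcgcagccgctGCTGAGTCAcgggcacgct
PSMD12 (chr17:65362470-65362499, minus strand): ggcgccagggGCTGAGTCAcggcgcggagc

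CACGTG matched in 3 of 18 windows of listed genes (PSMB3, PSMD9 and PSME3) and in 0 of 20 windows of the others. Over all coding genes it matched in 19.3% of windows of N-Myc-listed genes and 9.22% of the rest, so 0 of 20 is near what the rest of the genome shows. CCGGAAG matched in 5 of 18 and 10 of 20 windows, or 39.5% of the 38 against 16.7% of coding windows. CCAAT matched in 11 of 18 and 8 of 20 windows against 43.3%. The strings do not exclude one another, and CpG-rich windows differ from other windows in base composition, so these shares are given with no test.

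**Figure D4:**
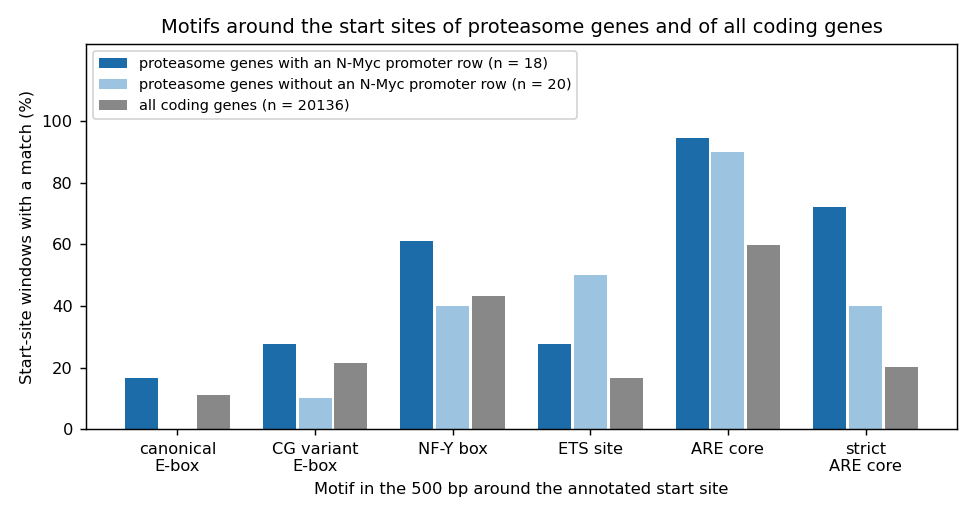
Share of 500 bp start-site windows (%) that hold each string, in proteasome genes with (n = 18) and without (n = 20) an N-Myc promoter row and in all coding genes (n = 20136). The strings are CACGTG (canonical E-box), CACGCG (CG variant), CCAAT (NF-Y box), CCGGAAG (ETS site), TGANNNNGC (ARE core, the antioxidant response element) and TGACNNNGC (strict ARE core). The ARE core matched in 94.4% of the listed and 90% of the other proteasome windows, against 59.9% of all coding windows.

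At PSMD3 the N-Myc and JMJD6 peaks had the same coordinates, chr17:38136206-38137093. The interval began 814 bp before the listed start site at 38137020 and ended 73 bp after it, and its centre lay 371 bp upstream in sequence the annotation leaves intergenic. It held none of the E-box strings. It held the 1 TGACGTCA among the 18 peaks, a string found in 2.85% of N-Myc promoter peaks and 2.82% of coding windows. An enhancer row that names PSMD3 and CSF3 (chr17:38136892-38139197, 2.31 kb) was present in the N-Myc list, the JMJD6 list and the list of both. It overlapped the PSMD3 promoter row, so the promoter and the enhancer rows rest on the same peak. The other 37 genes had their nearest JMJD6 peak between 21.6 kb (PSMC5) and 54.3 Mb (PSMB1) away, with a median of 2.31 Mb. Within 100 kb of a JMJD6 peak lay PSMC5, PSMA5 at 28.1 kb, PSMB4 at 51.4 kb and PSMD4 at 91.9 kb. The peak nearest to PSMB4 and PSMD4, chr1:151319132-151320614 in an intron of RFX5-AS1, was the same one, and it was also the nearest N-Myc peak to PSMB4.

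N-Myc enhancer rows, drawn from H3K27ac regions and labelled with their 2 nearest genes, named 21 of the 38 genes (55.3%, interval 38.3 to 71.4%), where 32% of coding genes were named. The rows numbered 23, and 14 of them overlapped the gene's own N-Myc promoter row. Those 14 rows had a median length of 2.22 kb, against 2.55 kb for all 4649 N-Myc enhancers, of which 52.8% overlapped some N-Myc promoter row. They add no second peak to most of these genes. An exception was PSME3, whose row of 11.2 kb also covered a peak at chr17:40976265-40976623 with a CACGTG of its own. That peak lay 8.79 kb from the main annotated start site of PSME3, and over another annotated start of the gene. The promoter rows in that region also named BECN1, an autophagy gene. PSMA1, PSMA5 and PSMB3 had a promoter row but no enhancer row. With super-enhancers added, 22 of 38 genes were named (57.9%, against 32.5% of coding genes). In regions that overlapped no N-Myc promoter row, this fell to 5 of 38, or 13.2% (interval 4.41 to 28.1%), against 14.8% of coding genes. The share above the background was thus not seen in the regions apart from promoters.

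The other 9 rows overlapped no N-Myc promoter row of the gene they named. A row of 5.14 kb at PSMC2 (chr7:102983935-102989072) spanned the main annotated start site and covered 2 N-Myc peaks in an intron of PSMC2. One, chr7:102984179-102984949, lay 3.14 kb from the main annotated start site, also fell within DNAJC2, and held 2 copies of CACGTG. The other, chr7:102985107-102985473, lay 2.62 kb from the main start site. The enhancer row also overlapped an N-Myc promoter row of DNAJC2. PSMC2 had no promoter row of its own, though an N-Myc peak lay over another annotated start site of the gene. PSMD14 was named by a row 70.1 kb away with 2 peaks, the nearer of them 69.6 kb off in an intron of PSMD14-DT. PSMD5 was named by a row of 10.1 kb over PHF19 with 3 peaks, the nearest at 25.4 kb. PSMB1 was named by a row 115 kb away, and PSMC5 by one 52.8 kb away over the promoters of CCDC47 and DDX42. The second rows of PSMB2 and PSMA6 lay 72.1 and 94.1 kb away. The most remote assignments were PSMG1, 377 kb from a row in ETS2, and PSMD7, 406 kb from a row in ZFHX3. At such distances the gene name in the row records nearness alone.

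PSMB5, which encodes the subunit with the chymotrypsin-like site, was the 1 proteasome gene named by a super-enhancer (2.63% of the 38, against 1.31% of coding genes). The N-Myc super-enhancer spanned chr14:23464408-23505284, or 40.9 kb, and covered the whole of PSMB5. It held 2 N-Myc peaks. One lay in an intron of PSMB5 at chr14:23490613-23491057 (445 bp), 13.1 kb downstream of the start site, and held CACGTG. The other, chr14:23466415-23466933 (519 bp), lay 37.2 kb from the start site in an intron of C14orf93. Neither overlapped a promoter row, and PSMB5 had no promoter or typical enhancer row. Counting promoters, enhancers and super-enhancers together, an N-Myc row named 25 of the 38 genes, or 65.8% (interval 48.6 to 80.4%), against 37.1% of coding genes.

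The 20 genes without a promoter row were not all far from N-Myc. Their nearest common peak lay between 2.62 kb (PSMC2) and 283 kb (PSMG2) from the start site, with a median of 31 kb, and 17 of 20 (85%) had a peak within 100 kb. Autosomal coding genes without a promoter row had a median of 82.5 kb and 55.5% within 100 kb, and those with a CpG-rich start site had 73.1 kb and 59%. Within 10 kb the share was 2 of 20 (PSMC2, and PSMG3 at 7 kb), or 10%, close to the 10.3% and 11.2% of those genes. PSMB5 (13.1 kb), PSMC1 (19.9 kb), PSMD8 (21.5 kb), PSMG1 (23.6 kb), PSMD5 (25.4 kb), PSMD14 (25.8 kb), PSMD11 (26.3 kb) and PSMD13 (29.2 kb) followed. PSMA4, PSMD12, PSMD2 and PSMB4 lay between 32.9 and 51.4 kb, and PSMD1, PSMD7 and PSMA7 between 69.5 and 73.8 kb. PSMB1 (115 kb), PSMB7 (243 kb) and PSMG2 were beyond 100 kb. These nearest peaks were at other genes in several cases: in an exon of NRDE2 for PSMC1, of ALG3 for PSMD2 and of PHF19 for PSMD5, and in an intron of CATSPERG for PSMD8.

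**Figure D5:**
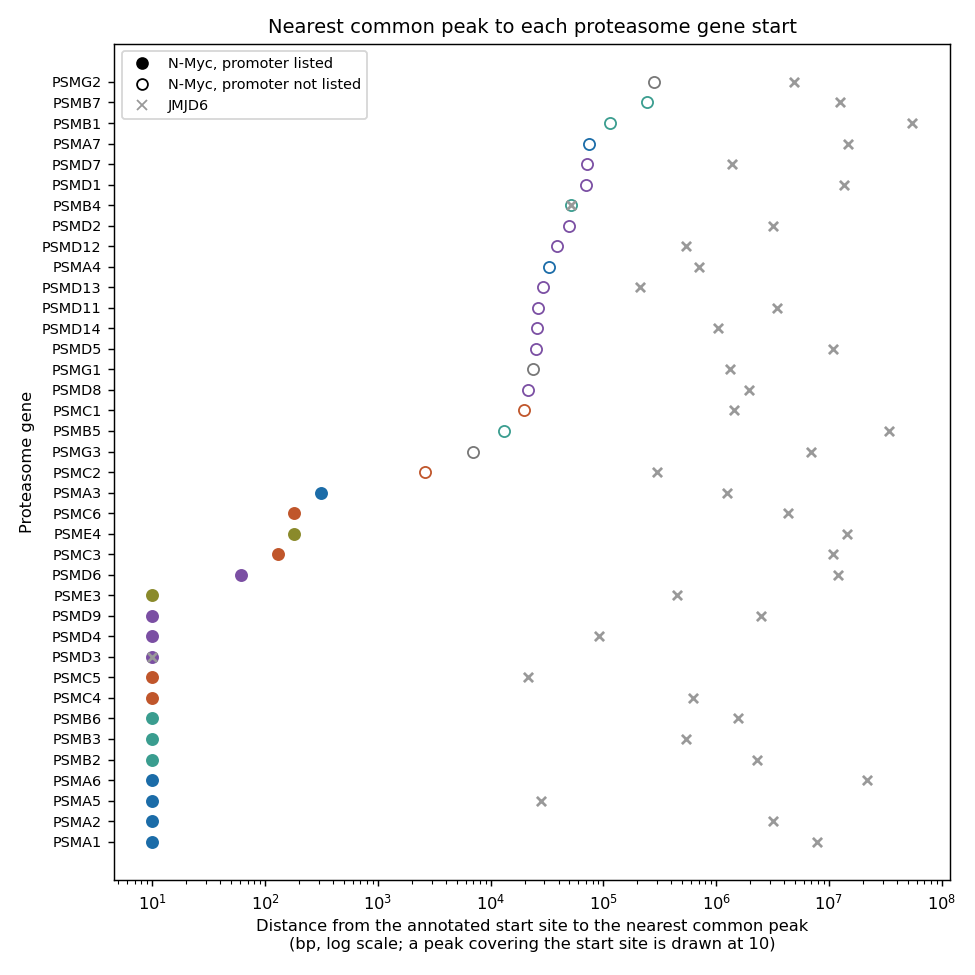
Distance in bp (log scale) from each gene's annotated start site to the nearest common N-Myc peak (circles, filled where the promoter is listed) and JMJD6 peak (crosses), with peaks that cover the start site drawn at 10 bp. Filled circles stay within 0.311 kb, open circles begin at 2.62 kb (PSMC2), and crosses lie mostly beyond 100 kb, apart from PSMD3, PSMC5, PSMA5, PSMB4 and PSMD4.

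On the long arm of chromosome 17, part of which the study describes as gained in these cells, 4 of 6 proteasome genes were listed (PSMB3, PSMC5, PSMD3 and PSME3), and PSMD11 and PSMD12 were not. Of all coding genes on that arm 25.4% were listed. These values cover the whole arm, and the gained part was not counted separately. Elsewhere 14 of 32 proteasome genes were listed, or 43.8%, close to the 47.4% of all 38. The part of copy number in the lists was not tested.

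Of 30 related genes, N-Myc promoter rows named 10 (33.3%, interval 17.3 to 52.8%, which includes both backgrounds). None of the 5 inducible or tissue-specific subunits (PSMB8, PSMB9, PSMB10, PSMB11 and PSMA8) was among them. PSMB10 had its nearest N-Myc peak 1.01 kb from the annotated start site. Promoter rows follow the start sites of the lists, which can differ from it: UCHL5 was listed with its nearest peak at 1.11 kb. Of 11 other particle subunits and regulators, 4 were listed: PSME2, a subunit of the interferon-induced activator, ADRM1, a ubiquitin receptor, the deubiquitinase UCHL5, and PAAF1. The assembly factor PSMG4 was listed and POMP was not. Of 4 genes that control proteasome transcription, 3 were listed: NFE2L1, NFE2L2 and NGLY1, whose enzyme processes the NFE2L1 protein. The fourth, the protease gene DDI2, had its nearest peak at 90.5 kb. NFE2L1 also lay in an N-Myc super-enhancer, chr17:46120123-46133658 (13.5 kb), with 2 N-Myc peaks. Among the genes that deliver substrates, UBQLN4 was listed. NFE2L2, UCHL5, PAAF1, PSME2 and UBQLN4 were also named by N-Myc enhancer rows, as were PSMB10, SEM1, ECPAS, TXNL1, VCP and RAD23B, which had no promoter row. The enhancer rows naming UCHL5, PAAF1, PSME2 and UBQLN4 also overlapped N-Myc promoter rows of other genes, among them TROVE2, COA4, EMC9 and LAMTOR2.

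JMJD6 promoter rows named 4 of the 30 related genes, or 13.3% (interval 3.76 to 30.7%), against 0.626% of coding genes: PSMB8, PSMB9, VCP and UBQLN4. The related genes were chosen with earlier results of these data known, and PSMB8 and PSMB9 are neighbours. The interval is therefore no test against the share of coding genes. PSMB8 and PSMB9 encode subunits of the immunoproteasome, lie close together on chromosome 6 with TAP1 between their listed promoters, and had JMJD6 peaks 0.405 and 0.067 kb from their start sites, while their nearest N-Myc peaks were 124 and 114 kb away. The PSMB9 peak also covered the start of TAP1, which runs on the opposite strand. A JMJD6 peak covered the start site of VCP, the segregase that pulls ubiquitinated proteins out of complexes (chr9:35072588-35073085), and its nearest N-Myc peak lay at 7.38 kb. An enhancer row at VCP (chr9:35070927-35080510) was in the lists of both proteins, on separate peaks. Its N-Myc peak was that nearest one (chr9:35080006-35080401), and the row also overlapped an N-Myc promoter row of FANCG. UBQLN4, a ubiquitin shuttle, was in the promoter list of both proteins, and an enhancer row at it (chr1:156022775-156025347) was in both lists too. That enhancer row also overlapped an N-Myc promoter row of LAMTOR2, so its peaks cannot be assigned to UBQLN4 alone. NGLY1 was named by a JMJD6 enhancer row 119 kb away. Among the 38 constitutive genes and the 30 related genes together, PSMD3 and UBQLN4 were the genes in the promoter list of both proteins.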

How the data were processed

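The 6 ChIP-seq samples were grouped by the antibody in their labels (N-Myc, n = 3, and JMJD6, n = 3). Per the labels and the study's methods, the authors used BWA with hg19, SAMtools, bedtools and, for each replicate and its input, the peak caller MACS2 (version 2.1.1.20160309). Peaks found in all 3 replicates were kept. Enhancers came from H3K27ac regions stitched within 12.5 kb, and nearest genes from GREAT. The 12 deposited lists give other values than signal: positions in bp, with gene symbols. Because the lists pool replicates, differences between them could not be set against replicate spread.

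Members were matched by symbol (38 of 38 in GENCODE 44 lifted to GRCh37, as were 91.4% of N-Myc promoter symbols). Of 26 listed start sites of members, 23 lay within 50 bp of an annotated one. Peaks and rows were joined at an overlap of at least 1 bp, and motifs were counted on both strands of the GRCh37 reference. No test was run on the 38 genes as a set. All 38 genes are named, as are the related genes with a row, except 1 that is not reported here. The members, the related genes and the strings were chosen with earlier results of these data known. Overlap and motif searches were tested on simulated data. Python 3.11.15, pysam 0.24.0, pandas 2.3.3, numpy 2.4.6, SciPy 1.17.1 and matplotlib 3.10.9 were used.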

Additional observations from a re-analysis of the deposited data

How the results depend on the processing

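The count of 18 N-Myc-listed promoters became 19 when a peak within 1 or 5 kb of any annotated start site was required in place of a row (PSMC2 was gained and none lost). It was 18 within 200 bp, where PSMC2 was gained and PSMA3 lost. The coding gene share was not computed at these distances, so these counts have no background to be set against. The count fell to 11 with peaks of at least the median width of all N-Myc peaks, 418 bp. The coding gene share then fell to 10.5%, and PSMA3, PSMB6, PSMC6, PSMD4, PSMD6, PSMD9 and PSME4 were lost. Requiring at least 50% of the peak inside the row left the same 18 genes. The 22 genes named by an N-Myc enhancer or super-enhancer fell to 5 (PSMA6, PSMB1, PSMB5, PSMD7 and PSMD14) with regions that overlap no N-Myc promoter row, and the coding gene share from 32.5% to 14.8%. The background of 17.5% was 18.4% on autosomes and 6.36% over all gene symbols, non-coding genes included. The count of 8 peaks with CACGTG was 5 when the whole string lay within 100 bp of the peak centre, or 27.8% against 23.1% of all promoter peaks. PSMC3, PSME3 and PSMC4 were lost, the last because its string runs past that limit. The CpG-rich background, the coding gene shares under these restrictions and the narrower response strings were added after seeing the data. No paired analysis was possible because the lists pool the replicates, and for the same reason no replicate could be left out. With no counts, depth limits what a missing row can say.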
